A study of Mus musculus with 8 samples.

Results

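Glucose enters the heart muscle cell and is broken down to pyruvate by a short chain of proteins, and 10 of their genes are described here in WT and TIGAR-knockout (TKO) hearts. They were chosen by symbol as a listed set of glucose transporters (*Slc2a1*, *Slc2a4*), hexokinases (*Hk1*, *Hk2*), and later glycolysis enzymes (*Aldoa*, *Gapdh*, *Pgk1*, *Pgam2*, *Eno3*, *Pkm*), with no measured value in the rule. All 10 were among the 16994 genes of the table, and all 10 were among the 12999 genes kept by a filter on low levels, which asked for a mean over the 8 libraries of 1 CPM or more, where CPM is the count scaled to library size. Whole-tissue RNA from the hearts of male mice was sequenced in 8 libraries, 1 for each combination of genotype and region. The regions were the left ventricle and the infarct, border, and remote zones, and the genotypes were WT and whole-body *Tigar* knockout. For the 3 zones, the left anterior descending coronary artery was permanently tied off at 16 weeks of age. Heart imaging in the study ran to 4 weeks after surgery, and the time of tissue collection for these libraries is not stated. RNA from 3 mice was pooled for each infarct zone library; the number of mice behind the other libraries and the age and any sham operation of the left ventricle mice are not given in the sources used here. Because the knockout is in every cell of the body, these libraries hold no comparison that is limited to the heart muscle cell.

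TIGAR is a phosphatase that removes fructose-2,6-bisphosphate, an activator of phosphofructokinase. By this action it restrains glycolysis upstream of the step that cuts the sugar in 2 pieces. The study also cites work in which TIGAR raises glycolysis by acting on hexokinase 2, the product of *Hk2*. The adult heart burns mainly fatty acids and takes up glucose through the insulin-responsive carrier GLUT4 and the basal carrier GLUT1. Several steps of the pathway exist as a muscle form and a widely expressed form, encoded by different genes, so the genes below include muscle forms (*Slc2a4*, *Hk2*, *Pgam2*, *Eno3*) beside genes used by most cells. *Aldoa* and *Pkm*, which serve muscle and other cells, are not counted as muscle forms below.

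The muscle-form genes and the widely expressed genes moved by different amounts, and 150 bases from the start regions of 5 of them are shown as examples. *Eno3*, *Pgam2*, and *Hk2* had large differences between regions and *Slc2a1* and *Pgk1* smaller ones. *Gapdh*, *Aldoa*, and *Pkm* are not shown. Their highest levels were 3.09, 3.08, and 2.56 times their lowest over the 8 libraries, against 3.55 for *Hk2*. A difference between the 2 kinds in these windows was not tested. The sequences are from RefSeq on GRCm38.p6, 5′ to 3′ on the gene's strand, and capitals mark ACGTG or GCGTG on either strand, the core letters of the element bound by hypoxia-inducible factors. The windows end 1 base before the transcription start, except that of *Slc2a1*, which ends 31 bases before it.
*Eno3* (chr11:70657026-70657175, plus strand): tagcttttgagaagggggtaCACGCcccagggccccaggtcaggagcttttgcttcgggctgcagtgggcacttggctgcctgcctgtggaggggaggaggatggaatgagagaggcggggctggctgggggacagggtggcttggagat
*Pgam2* (chr11:5803797-5803946, minus strand): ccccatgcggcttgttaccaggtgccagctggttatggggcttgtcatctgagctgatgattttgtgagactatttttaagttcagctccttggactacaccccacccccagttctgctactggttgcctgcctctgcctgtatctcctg
*Hk2* (chr6:82774455-82774604, minus strand): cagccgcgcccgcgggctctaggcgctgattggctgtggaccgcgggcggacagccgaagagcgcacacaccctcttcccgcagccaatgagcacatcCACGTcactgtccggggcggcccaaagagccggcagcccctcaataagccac
*Slc2a1* (chr4:119108565-119108714, plus strand): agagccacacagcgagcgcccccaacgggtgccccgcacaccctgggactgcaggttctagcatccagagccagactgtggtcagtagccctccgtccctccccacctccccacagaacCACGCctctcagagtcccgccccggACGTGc
*Pgk1* (chrX:106186950-106187099, plus strand): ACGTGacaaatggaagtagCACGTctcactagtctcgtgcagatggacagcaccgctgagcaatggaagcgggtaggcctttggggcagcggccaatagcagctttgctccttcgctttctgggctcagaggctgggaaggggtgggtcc
In the 250 bases before each listed start, 9 of 13 starts of 9 member genes (69.2%) held ACGTG or GCGTG, against 38.6% of the 32851 starts in the RefSeq table. Starts of the same gene are not independent, and for *Aldoa* some have overlapping windows that share a match. *Pgam2* was the member gene with no such match at its listed start, and *Slc2a4* was not in the table. These matches describe letters in a window and not bound sites.

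Total counts per library lay between 27429240 and 33799249, and library sizes were scaled with the TMM method of edgeR, so that every level below is a TMM-scaled CPM. *Tigar* (GRCm38 chromosome 6, 127085116 to 127109557) had between 1066 and 2215 counts in the WT libraries and between 51 and 87 in the TKO libraries. Marker genes of heart muscle (*Myh6*, *Tnnt2*, *Tnni3*, *Actn2*, *Ryr2*, *Pln*) summed to 24920 (left ventricle), 17480 (border zone), 19330 (remote zone), and 5239 CPM (infarct zone) in WT hearts. The TKO sums were 23520, 22360, 22440, and 11480 CPM in the same order, and none of the 6 markers was at 0 in any library. The 6 fibroblast markers summed to between 738 and 2158 CPM outside the infarct zone and to 5751 (WT) and 4798 CPM (TKO) in it, and the 6 leukocyte markers to between 224 and 451 CPM outside it and to 1244 and 935 CPM in it. In bulk tissue, fewer cells of a type and less RNA per cell cannot be told apart, and the part of these cell types in the results was not tested. The WT infarct zone library stood apart by its genes of fast skeletal muscle, whose 6 markers summed to 150.7 CPM there and to 30.3 CPM in the WT border zone, against 3.16 to 3.90 CPM in the other 6 libraries. The 5 adipocyte markers summed to 32.4 CPM in the WT left ventricle and to 0.541 CPM in the TKO left ventricle. Results that rest on these 3 WT libraries are therefore given with and without them where the fit allows it.

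The transporters behaved differently from each other. *Slc2a4* (ENSMUSG00000018566, chromosome 11, 69942539 to 69948188) encodes GLUT4, the carrier that insulin and contraction bring to the muscle cell surface. Its level was 351 CPM in the WT left ventricle, 254 CPM in its border zone, 301 CPM in its remote zone, and 79.9 CPM in its infarct zone. In TKO hearts the levels in the same order were 370, 334, 348, and 164 CPM. Both infarct zone libraries were the lowest of their genotype, and the TKO value lay above the WT value in every region. *Slc2a1* (ENSMUSG00000028645, chromosome 4, 119108711 to 119137983) encodes GLUT1, the carrier that most cells use for their basal supply. It was nearly flat, at 21.2, 21.5, 21.4, and 20.0 CPM in the WT left ventricle, border, remote, and infarct zones and at 24.4, 20.2, 22.1, and 21.2 CPM in TKO. Its highest level was 1.22 times its lowest over the 8 libraries, a smaller span than that of all but 4.74% of the genes tested. The matching span of *Slc2a4* was 4.62, where the median gene had 1.92.

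The hexokinases trap glucose in the cell as glucose-6-phosphate. *Hk2* (ENSMUSG00000000628, chromosome 6, 82725025 to 82774454) encodes the insulin-regulated form of muscle and fat. It stood at 269, 212, 218, and 78.9 CPM in the WT left ventricle, border, remote, and infarct zones, and at 280, 261, 267, and 142 CPM in TKO. As for *Slc2a4*, the WT infarct zone held the lowest level and the TKO infarct zone the next lowest. *Hk1* (ENSMUSG00000037012, chromosome 10, 62268855 to 62379908) encodes the form found in most tissues. Its levels were 140, 145, 130, and 99.6 CPM in WT and 161, 134, 137, and 129 CPM in TKO, so the genotypes crossed in the border zone and the span over all libraries was 1.62.

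The 6 enzymes from aldolase to pyruvate kinase were all lowest in the WT infarct zone. *Aldoa* (ENSMUSG00000030695, chromosome 7, 126795234 to 126800751), the aldolase of muscle and red cells that splits fructose-1,6-bisphosphate, was at 2408, 1896, 1875, and 832 CPM in the WT left ventricle, border, remote, and infarct zones. In TKO it was at 2562, 2063, 2055, and 1364 CPM. *Gapdh* (ENSMUSG00000057666, chromosome 6, 125161715 to 125166467), the oxidizing step of glycolysis and a common reference gene in PCR, was at 3157, 2803, 2904, and 1173 CPM in WT and at 3624, 2995, 2898, and 1874 CPM in TKO. Over the 8 libraries its highest level was 3.09 times its lowest, and over the 6 libraries outside the infarct zone 1.29 times. Its TMM-scaled level was thus not constant across zones. *Pgk1* (ENSMUSG00000062070, chromosome X, 106187100 to 106203699), which makes the first ATP of the pathway, was at 394, 396, 403, and 206 CPM in WT and at 475, 413, 407, and 287 CPM in TKO. In both genotypes the infarct zone was below the other 3 regions, which in WT did not differ beyond 403 against 394 CPM.

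*Pgam2* and *Eno3*, the muscle forms of the next enzymes, had the widest spans. *Pgam2* (ENSMUSG00000020475, chromosome 11, 5801640 to 5803733), muscle phosphoglycerate mutase, was at 505, 378, 428, and 119 CPM in the WT left ventricle, border, remote, and infarct zones, and at 616, 452, 448, and 237 CPM in TKO. *Eno3* (ENSMUSG00000060600, chromosome 11, 70657202 to 70662513), muscle enolase, was at 1195, 786, 1017, and 222 CPM in WT and at 1401, 1122, 1152, and 496 CPM in TKO. For both genes the TKO library was above the WT library of the same region throughout, and the border zone gap of *Eno3* was wider than its remote zone gap. *Pkm* (ENSMUSG00000032294, chromosome 9, 59656368 to 59679375), pyruvate kinase of muscle and of most proliferating cells, was at 1274, 973, 932, and 559 CPM in WT and at 1430, 1155, 1068, and 791 CPM in TKO. The highest level of *Eno3* was 6.30 times its lowest, a wider span than that of 92.3% of the genes tested, and the span of *Pgam2* was 5.17.

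**Figure D1:**
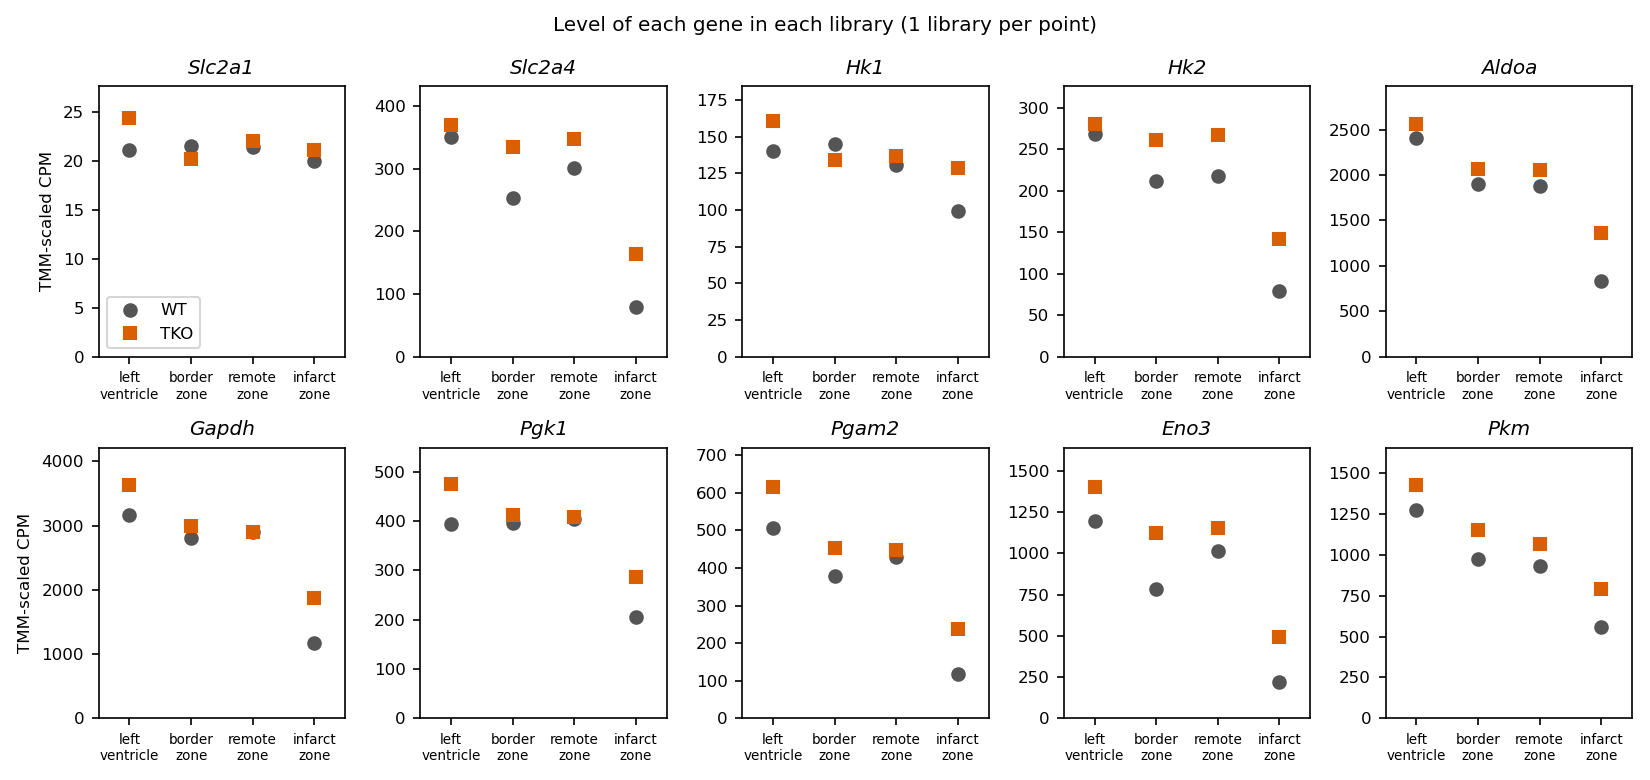
TMM-scaled CPM (vertical axis, from 0) of each of the 10 genes in the left ventricle and the border, remote, and infarct zones, with 1 point per library (circles WT, squares TKO). *Slc2a1* is nearly level across the 8 libraries, whereas *Eno3* falls from 1195 CPM in the WT left ventricle to 222 CPM in the WT infarct zone.

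The first comparison asked how the pathway differed between infarcted and left ventricular tissue. Set against the WT left ventricle, the WT infarct zone ratios ran from 0.186 for *Eno3*, 0.228 for *Slc2a4*, 0.235 for *Pgam2*, and 0.294 for *Hk2* to 0.711 for *Hk1* and 0.943 for *Slc2a1*. The members with the lowest 4 ratios were the 4 genes counted here as muscle forms. *Aldoa* (0.346), *Gapdh* (0.372), *Pkm* (0.439), and *Pgk1* (0.523) lay between, and of these *Aldoa* and *Pkm* also serve muscle. The median was 0.359, where the median of all genes tested was 1.01. In TKO the ratios were 0.354 for *Eno3*, 0.385 for *Pgam2*, 0.445 for *Slc2a4*, 0.507 for *Hk2*, 0.517 for *Gapdh*, 0.532 for *Aldoa*, 0.553 for *Pkm*, 0.604 for *Pgk1*, 0.798 for *Hk1*, and 0.868 for *Slc2a1*. The TKO median was 0.525 against 1.01 for all genes. In WT, 7 of the 10 genes were at least 2-fold lower, where 14.9% of all genes tested were, and in TKO 3 of 10 (*Eno3*, *Pgam2*, *Slc2a4*), where 7.68% were. With total-count scaling the WT median became 0.637 and the TKO median 0.762, and 3 of 10 genes (*Eno3*, *Slc2a4*, *Pgam2*) were at least 2-fold lower in WT, where 3.83% of all genes were, and 0 of 10 in TKO, where 1.57% were. Exact binomial 95% intervals on the counts were narrow, for example 0.182 to 0.190 for *Eno3* and 0.847 to 1.05 for *Slc2a1* in WT, and they cover counting error only.

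With genotype as a block, edgeR's quasi-likelihood test of the infarct zone against the left ventricle treats the 2 genotypes as repeats, so that its p-values measure the spread between libraries and not between mice. It called 9 of the 10 genes lower at a Benjamini-Hochberg adjusted p under 0.05, where 28.6% of all genes tested were called lower. *Eno3* fell by 1.94 on the log2 scale (SE 0.274, adjusted p = 0.00197 by edgeR's quasi-likelihood test), *Pgam2* by 1.70, *Slc2a4* by 1.63, and *Hk2* by 1.36. The decrease of *Aldoa* was 1.21, that of *Gapdh* 1.17, that of *Pkm* 1.02, and that of *Pgk1* 0.83 on the same scale, where the fitted values are negative. *Hk1* had a log2 difference of -0.41 (SE 0.143, adjusted p = 0.0486 in the same edgeR test), and *Slc2a1* one of -0.15 (SE 0.104, adjusted p = 0.266), which did not pass. Without the WT infarct zone library, the WT border zone library, or the WT left ventricle library, the log2 differences of all 10 genes stayed negative. The call of *Hk1* was lost in each of these fits. Its log2 difference became -0.25 without the WT infarct zone library, where that of *Eno3* became -1.54. With scaling by total counts alone, the median of all genes rose to 1.79 times the left ventricle in WT and 1.47 times in TKO, and *Slc2a1* turned higher (log2 difference 0.54, adjusted p = 0.0109 by edgeR's test) as did *Hk1* without passing the test (0.27), while *Pgk1* and *Pkm* no longer passed.

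**Figure D2:**
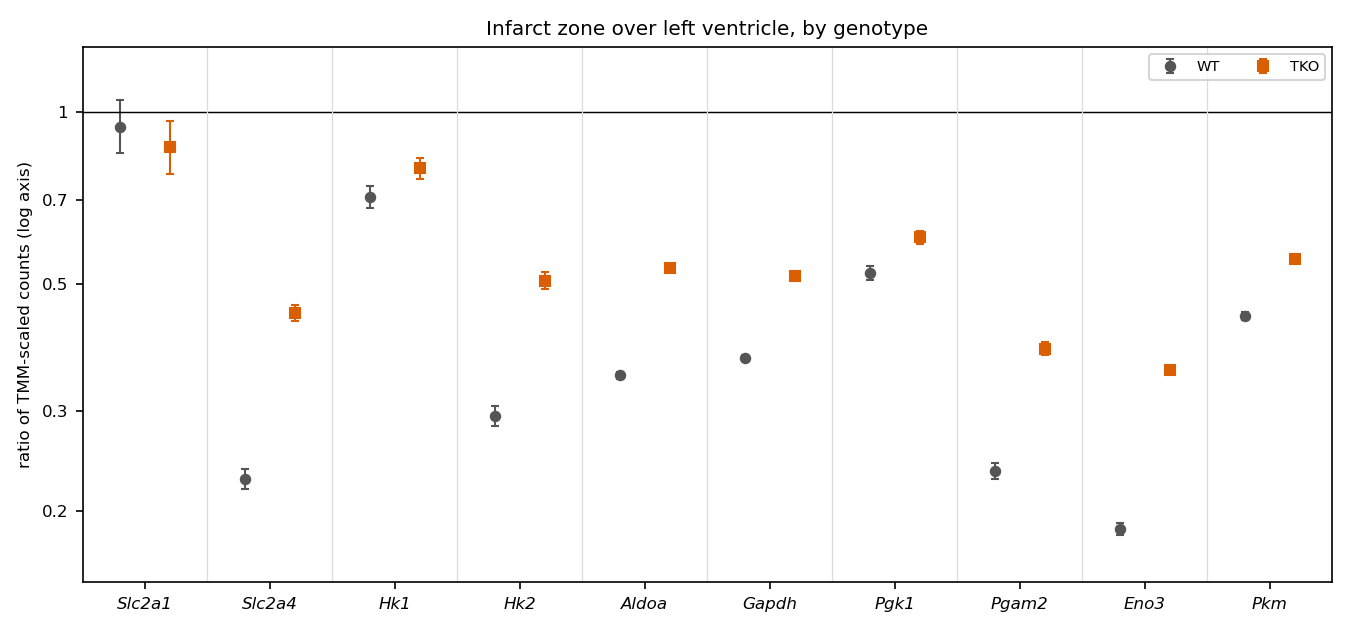
Infarct zone over left ventricle ratio of TMM-scaled counts (vertical log axis) for the 10 genes, circles WT and squares TKO. Bars are 95% intervals from counting error alone, and each genotype has 1 library per region. The WT point lies below the TKO point for each gene except *Slc2a1*, at 0.943 in WT and 0.868 in TKO.

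The border and remote zones differed less from the left ventricle. Border zone ratios ran from 0.658 (*Eno3*) to 1.04 (*Hk1*) in WT and from 0.735 (*Pgam2*) to 0.933 (*Hk2*) in TKO, with medians of 0.788 and 0.828. Remote zone ratios ran from 0.732 (*Pkm*) to 1.03 (*Pgk1*) in WT and from 0.728 (*Pgam2*) to 0.954 (*Hk2*) in TKO, with medians of 0.854 and 0.836. In the border zone test across genotypes, 0 of the 10 genes were called by edgeR's quasi-likelihood test, where 0.715% of all genes were, and 0 by DESeq2, where 4.43% were. At an unadjusted p under 0.05, 0 of the 10 passed by edgeR, where 17.9% of all genes did, and 1 by DESeq2, where 15.6% did. In the remote zone, edgeR called 0 of the 10 and 0% of all genes, and DESeq2 called 0 of the 10 and 1.25% of all genes. *Pkm*, with a log2 difference of -0.44, was the 1 member with an unadjusted p under 0.05 by edgeR there (adjusted p = 0.45), where 10.6% of all genes passed at that level. The 3 zones of a genotype share its left ventricle library, so their ratios are not independent of each other.

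The second comparison was between genotypes. In the infarct zone the TKO over WT ratio was above 1 for all 10 genes (under total-count scaling for all but *Slc2a1*), with a median of 1.62 against 1.01 for all genes tested. Muscle enolase *Eno3* had the highest ratio, 2.23 (95% interval from counting error, 2.17 to 2.29), followed by *Slc2a4* at 2.06 (1.97 to 2.15), *Pgam2* at 1.99 (1.93 to 2.06), and *Hk2* at 1.80 (1.72 to 1.88). *Aldoa* was at 1.64, *Gapdh* at 1.60, *Pkm* at 1.42, *Pgk1* at 1.39, and *Hk1* at 1.29, each with an interval above 1. *Slc2a1* was at 1.06 with an interval from 0.960 to 1.17, which includes 1 and covers counting error under this scaling only. At least 2-fold higher were 2 of the 10 genes, *Eno3* and *Slc2a4*, where 2.45% of all genes tested were, and *Pgam2* was just inside that limit. With total-count scaling, which moved the median of all genes to 0.820, the member median was 1.32, *Slc2a1* was at 0.865, and 0 of the 10 genes were at least 2-fold higher, where 0.892% of all genes were.

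In the left ventricle the ratios ran from 1.04 (*Hk2*) to 1.22 (*Pgam2*), with a median of 1.15 and an interval above 1 for each gene. In the border zone they ran from 0.924 (*Hk1*) to 1.43 (*Eno3*), with *Slc2a4* at 1.32, *Hk2* at 1.23, *Pgam2* at 1.20, *Pkm* at 1.19, *Aldoa* at 1.09, *Gapdh* at 1.07, *Pgk1* at 1.04, and *Slc2a1* at 0.940. In the remote zone the range was 0.998 (*Gapdh*) to 1.22 (*Hk2*). The medians were 1.14 and 1.07, and under total-count scaling *Gapdh* (0.999) and *Pgk1* (0.975) in the border zone and *Pgk1* (0.998) in the remote zone fell below 1. No member was 2-fold different in these 3 regions, where 5.47% (left ventricle), 4.48% (border zone), and 3.53% (remote zone) of all genes were, in either direction. The WT libraries with skeletal muscle genes were those of the infarct and border zones, and skeletal muscle also expresses several of the members. The part of skeletal muscle RNA in these ratios was not tested.

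**Figure D3:**
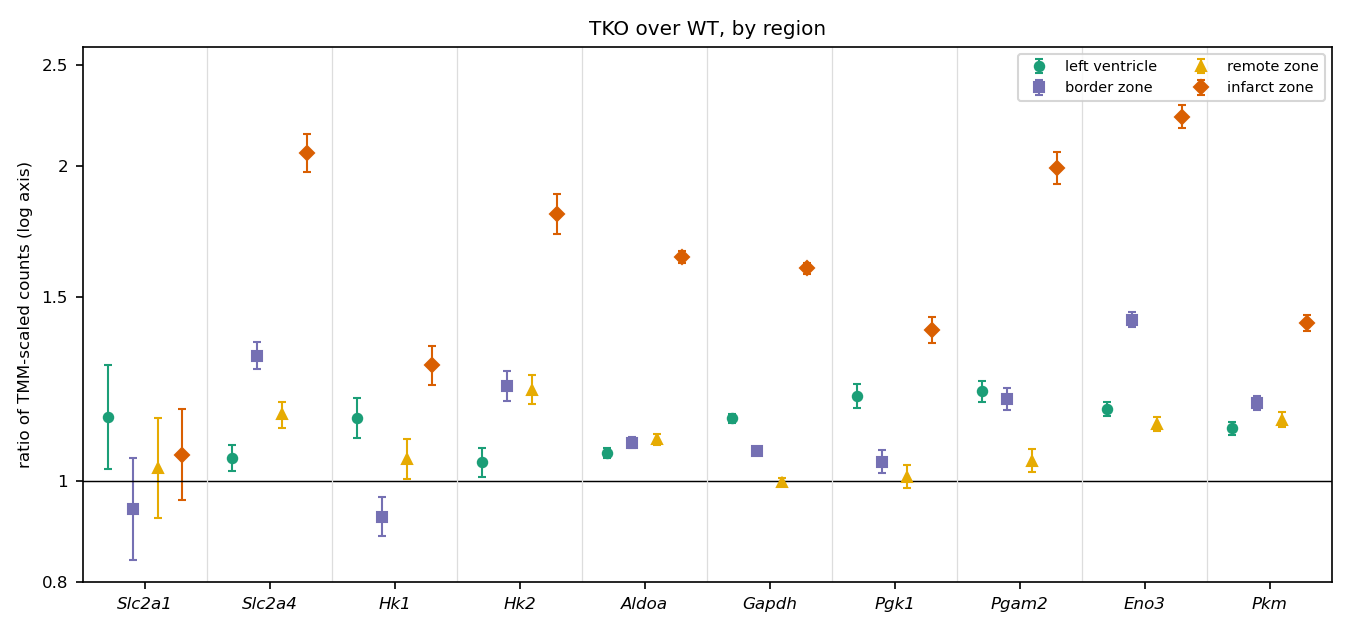
TKO over WT ratio of TMM-scaled counts (vertical log axis) for the 10 genes in each of the 4 regions, with 95% intervals from counting error alone and 1 library per genotype and region. The infarct zone diamonds are the highest of the 4 points for each gene except *Slc2a1*, and reach 2.23 for *Eno3*.

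Since each region has 1 library per genotype, the genotypes were tested with the 4 regions as blocks, which treats regions as repeats and says nothing of the spread between mice. No member was called by edgeR's quasi-likelihood test (0 of 10), where 0.138% of all genes tested were. The log2 differences were all above 0, from 0.06 for *Slc2a1* to 0.52 for *Eno3* (SE 0.188, adjusted p = 0.272 by edgeR, the smallest of the 10). At an unadjusted p under 0.05 the edgeR test passed 3 of the 10 (*Eno3*, *Hk2*, *Slc2a4*), where 16.2% of all genes passed. DESeq2 also called 0 of the 10, where it called 2.63% of all genes, and 6 of the 10 had an unadjusted p under 0.05 by DESeq2, where 15.6% of all genes did. Leaving out any 1 region, or the infarct and border zones together, gave 0 of 10 by edgeR each time. The share of all genes called in those smaller fits is not given here. *Tigar* itself was called lower in the edgeR test, with a log2 difference of -4.44 (adjusted p = 0.006).

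Whether the genotype difference in the infarct zone exceeded that in the other 3 regions was tested as a departure term, which rests on 1 WT and 1 TKO infarct zone library. All 10 departures were above 0 on the log2 scale, at 0.85 for *Eno3*, 0.81 for *Slc2a4*, 0.79 for *Pgam2*, 0.63 for *Hk2*, 0.60 for *Aldoa*, 0.58 for *Gapdh*, 0.36 for *Pgk1*, 0.31 for *Hk1*, 0.30 for *Pkm*, and 0.03 for *Slc2a1*. EdgeR's quasi-likelihood test called 0 of 10, with adjusted p-values from 0.41 to 0.991, where 0.00769% of all genes were called. At an unadjusted p under 0.05, 6 of the 10 (*Slc2a4*, *Hk2*, *Aldoa*, *Gapdh*, *Pgam2*, *Eno3*) passed by edgeR, where 7.83% of all genes did. DESeq2 called those 6, where it called 13.3% of the 2162 genes to which its filter on mean count left an adjusted p-value, so the call differed between the tools. The 6 heart muscle markers had departures from 0.50 (*Tnnt2*) to 1.66 (*Myh6*), with a median of 0.87, where the member median was 0.59. Their unadjusted p-values by edgeR's test ran from 0.00269 (*Pln*) to 0.047 (*Ryr2*), and edgeR called 0 of the 6 markers.

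The muscle and widely expressed forms of a step can be set against each other within a library, which needs no scaling between libraries. Counts are not per length, so a share of a pair is comparable between libraries and not a ratio of transcript numbers. Of the *Eno3* and *Eno1* counts, *Eno3* took 88.7% (left ventricle), 82.6% (border zone), 87.0% (remote zone), and 56.6% (infarct zone) in WT, and 89.0%, 87.7%, 88.0%, and 73.8% in TKO. *Pgam2* made up 87.1%, 80.5%, 82.6%, and 57.9% of the *Pgam2* and *Pgam1* counts in the WT regions in that order, and 87.8%, 82.7%, 84.1%, and 73.5% in TKO. The muscle share was thus lowest in the infarct zone, and there lower in WT than in TKO. *Hk2* made up 65.7%, 59.3%, 62.6%, and 44.2% of the *Hk2* and *Hk1* counts in WT and 63.5%, 66.1%, 66.1%, and 52.5% in TKO. *Slc2a4* made up 94.3%, 92.2%, 93.4%, and 80.0% of the transporter pair in WT and 93.8%, 94.3%, 94.0%, and 88.6% in TKO.

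In the infarct zone the TKO over WT odds ratio of the muscle form was 2.16 for *Eno3* (95% interval from counting error, 2.07 to 2.25), 2.02 for *Pgam2* (1.90 to 2.14), 1.94 for *Slc2a4* (1.74 to 2.17), and 1.40 for *Hk2* (1.31 to 1.48). In the left ventricle the odds ratios were 1.03 for *Eno3* (0.989 to 1.08), 1.06 for *Pgam2* (0.996 to 1.13), 0.914 for *Slc2a4* (0.813 to 1.03), and 0.907 for *Hk2* (0.858 to 0.958). In the border zone they were 1.51, 1.15, 1.40, and 1.33 in the same order. In the remote zone they were 1.10, 1.11, 1.13, and 1.17, each with an interval above 1. The odds ratios have no replicate and no test of their own. The widely expressed partners *Eno1* and *Pgam1* had TKO over WT ratios of 1.03 and 0.989 in the infarct zone, and log2 differences of 0.09 and 0.10 between infarct zone and left ventricle (adjusted p = 0.536 and 0.481 by edgeR). The lowest *Aldoa* share of the *Aldoa* and *Aldoc* counts was 99.8%, in the WT infarct zone.

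**Figure D4:**
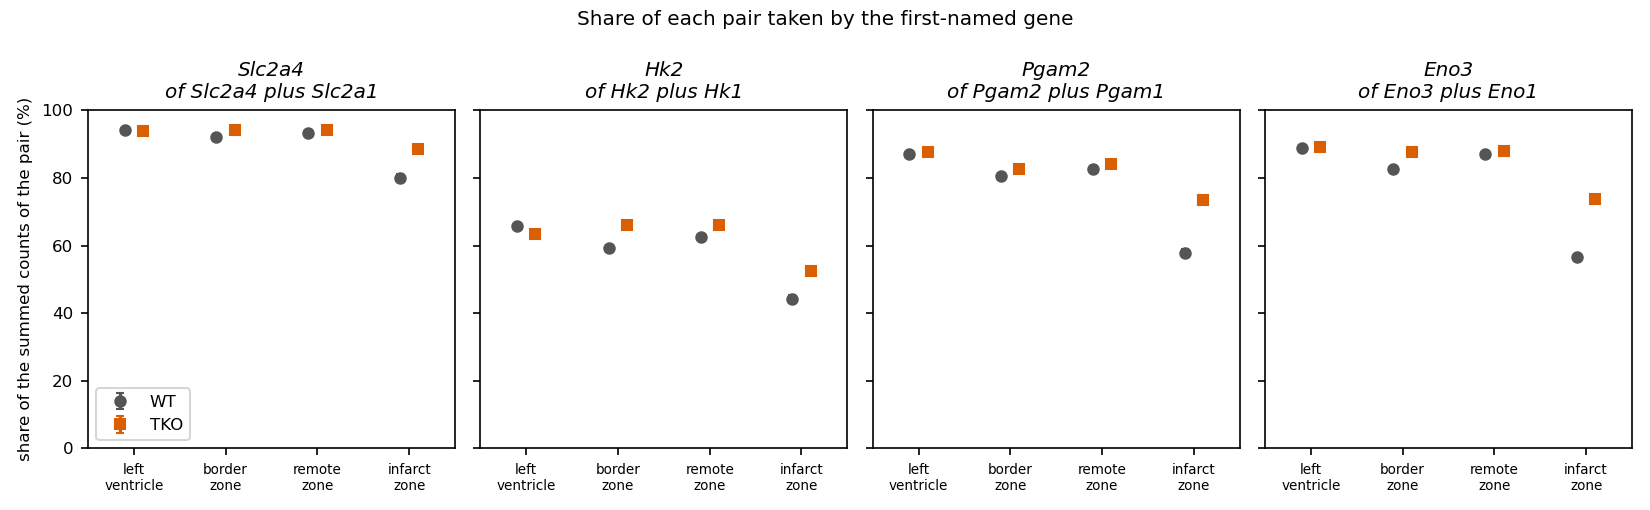
Share (vertical axis, %) of the summed counts of 4 gene pairs taken by the muscle form, by region, circles WT and squares TKO, with exact binomial 95% intervals that are smaller than most symbols. The infarct zone share is the lowest of each genotype in all 4 pairs, and the WT infarct zone the lowest of all, at 56.6% for *Eno3*.

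The summed level of the heart muscle markers moved in the direction of the member medians, except between genotypes in the left ventricle. In the infarct zone the sum was 0.210 times the left ventricle in WT and 0.488 times in TKO. The TKO over WT ratio of the sum was 2.19 (infarct zone), 1.28 (border zone), 1.16 (remote zone), and 0.944 (left ventricle). By marker, the left ventricle ratios ran from 0.666 to 1.16 with a median of 1.02, and 3 of the 6 were above 1. The lowest was that of *Myh6*, at 8921 CPM in the WT left ventricle and 5944 CPM in the TKO left ventricle. When each member's count was divided by the summed count of the 6 markers, a measure chosen after the data were seen, the infarct zone TKO over WT ratio was 1.02 for *Eno3*, 0.940 for *Slc2a4*, 0.910 for *Pgam2*, 0.821 for *Hk2*, 0.748 for *Aldoa*, 0.729 for *Gapdh*, 0.646 for *Pkm*, 0.636 for *Pgk1*, 0.589 for *Hk1*, and 0.484 for *Slc2a1*. Relative to these markers, 1 of the 10 genes was thus above WT in the TKO infarct zone, whereas relative to library size all 10 were. *Myh6* had the widest marker difference (TKO over WT 3.41, the other 5 markers 1.64 to 2.15), and without it the ratios of *Eno3*, *Slc2a4*, and *Pgam2* were 1.19, 1.10, and 1.06 and the other 7 were between 0.564 and 0.958. In the left ventricle the ratios per marker count ran from 1.10 to 1.29 with all 6 markers, with all 10 genes above 1, and from 0.948 to 1.11 without *Myh6*, with 7 above 1.

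Between infarct zone and left ventricle, the ratio per marker count in WT was 0.885 for *Eno3*, 1.08 for *Slc2a4*, 1.12 for *Pgam2*, and 1.40 for *Hk2*, against 3.38 for *Hk1* and 4.48 for *Slc2a1*. In TKO the same ratios were 0.725, 0.912, 0.789, 1.04, 1.63, and 1.78. Without *Myh6* the WT ratios were 0.714 for *Eno3*, 0.873 for *Slc2a4*, 0.904 for *Pgam2*, and 1.13 for *Hk2*, so *Slc2a4* and *Pgam2* moved below 1 in WT. *Aldoa* was at 1.64 in WT and 1.09 in TKO, *Gapdh* at 1.77 and 1.06, *Pkm* at 2.09 and 1.13, and *Pgk1* at 2.49 and 1.24, with all 6 markers. In WT these 4 genes lay between the muscle-form genes and the pair *Hk1* and *Slc2a1*, whereas in TKO *Gapdh*, *Aldoa*, and *Pkm* lay nearer to 1 than *Eno3* and *Pgam2*. These genes are also expressed outside heart muscle, and a difference in the number of heart muscle cells cannot be told apart here from a difference in their transcript content.

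**Figure D5:**
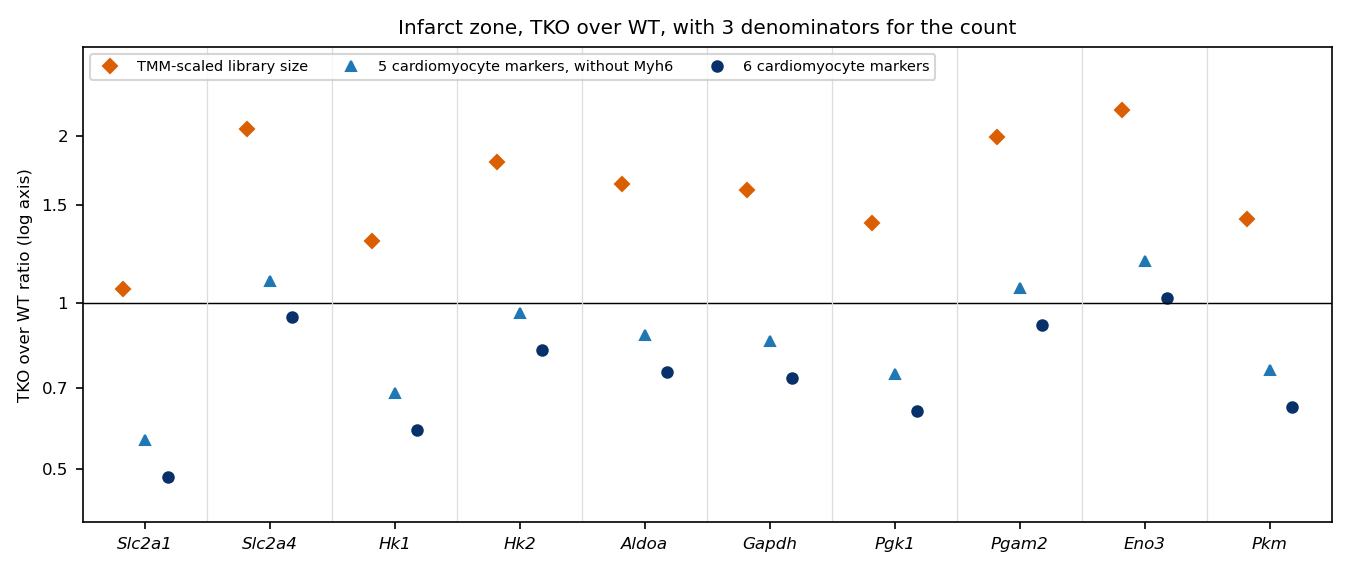
Infarct zone TKO over WT ratio (vertical log axis) of the 10 genes with the count divided by the TMM-scaled library size (diamonds), by the summed counts of 5 heart muscle markers without *Myh6* (triangles), and by all 6 markers (circles), 1 library per genotype. All 10 diamonds lie above 1 (with total-count scaling *Slc2a1* would be at 0.865), and 3 of the triangles and 1 of the circles do.

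Other genes of the pathway were set beside the members. Of 23 further glycolysis and glucose transporter genes, 19 passed the filter on low levels, and edgeR called 5 higher and 7 lower in the infarct zone against the left ventricle and 0 between genotypes across regions. Of all genes tested, edgeR called 28.2% higher and 28.6% lower in the infarct zone, and the counts of this list and of the other 2 lists stand against these shares. The median of their TKO over WT ratios in infarct tissue was 1.07. Among those at least 2-fold higher were *Slc2a12*, a glucose transporter of heart and muscle (70 counts in WT and 133 in TKO, ratio 2.25), and *Pfkm*, the muscle phosphofructokinase (2.09). Of the 18 genes of GLUT4 traffic and insulin signaling, edgeR called 2 higher and 7 lower in the infarct zone, and their median TKO over WT ratio there was 1.05, with none 2-fold different.

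Of the 16 glycogen genes, which store and release glucose units in muscle, edgeR called 3 higher and 13 lower in the infarct zone. The median of their TKO over WT ratios there was 1.47, and *Pygm*, the glycogen phosphorylase of muscle, was at 2.14 (4693 counts in WT and 8506 in TKO). EdgeR called 0 of the 16 glycogen genes and 0 of the 18 insulin signaling genes between genotypes across regions. Near-copies of the members took few counts: *Aldoart2* had 52 to 123, at most 0.199% of *Aldoa*, and the *Gapdh* pseudogenes had 0 to 47, at most 0.0529% of *Gapdh*. Exons of *Aldoa* and *Fam57b* overlap by 25 bases and those of *Gapdh* and *Iffo1* by 68 bases on opposite strands, and *Fam57b* and *Iffo1* had at most 309 and 1320 counts. Whether the quantification used strand is not given in the sources used here.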

How the data were processed

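The deposited table held, per gene and library, estimated counts that the authors made by trimming reads with Trim Galore 0.6.5, quantifying transcripts with kallisto 0.46 against mm10, and summing to genes with tximport; the values are whole numbers without normalization. All 8 columns matched a labelled sample. The members and all gene lists were chosen with earlier results of these data known.

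Counts were analysed in R 4.3.3 with edgeR 4.0.16. A filter on the mean CPM, with a minimum of 1, kept 12999 of 16994 genes, and TMM factors were computed from them. Ratios between 2 libraries carry exact binomial 95% intervals, which cover counting error only, and no p-value, since each group is 1 library. A prior count of 2 was used to count genes past 2-fold. Tests were edgeR's quasi-likelihood test on region plus genotype over all 8 libraries, and with a term for the genotype difference in the infarct zone, with Benjamini-Hochberg adjustment over all 12999 genes; DESeq2 1.42.0 was an alternative. Fits were tested on simulated data. A count of 3 or fewer was taken as the floor, and no member was near it. Other scalings, filters, and left-out libraries were tried. Named genes were the members, *Tigar*, the pair partners and near-copies, and genes of the other lists at least 2-fold different between genotypes in the infarct zone; some genes that this rule covers are not reported here. Positions are from GENCODE M21 (GRCm38), promoters from RefSeq (GRCm38.p6). Figures were drawn with Python 3.11.15 and matplotlib 3.10.9. The other experiments of the study were not analysed here.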

Additional observations from a re-analysis of the deposited data

Results flagged for a closer look

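The genotype difference of *Hk1* had opposite directions in different regions. Its TKO over WT ratio was 0.924 in the border zone, with a counting interval below 1 (0.885 to 0.965), against 1.15 in the left ventricle, 1.29 in the infarct zone, and 1.05 in the remote zone, each with an interval above 1. The difference between these regions was not tested, because each region has 1 library per genotype.

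The *Hk2* share of the *Hk2* and *Hk1* counts was likewise lower in TKO in the left ventricle (odds ratio 0.907, 0.858 to 0.958) and higher in TKO in the infarct (1.40), border (1.33), and remote zones (1.17). This difference was not tested for the same reason.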

How the results depend on the processing

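The infarct zone TKO over WT median of the members (1.62) was 1.32 with total-count CPM and 1.66 with TMM over all genes, and the infarct zone over left ventricle median was 0.637 and 0.341 in WT and 0.762 and 0.508 in TKO, with 0.506 in TKO by DESeq2 size factors. With counts divided by the 6 heart muscle markers, a setting chosen after the data were seen, the TKO over WT medians turned below 1 in the infarct (0.738), border (0.890), and remote zones (0.924), and the infarct zone over left ventricle medians turned above 1 (WT 1.71, TKO 1.08). Without *Myh6* these values were 0.862, 0.922, 0.987, 1.38, and 1.18. The cause was not tested. With total-count scaling the members at least 2-fold different went from 2 to 0 (infarct zone, TKO over WT), from 7 to 3 (infarct zone over left ventricle, WT), and from 3 to 0 (TKO). Under it *Slc2a1* was called higher in the infarct zone (log2 difference 0.54), *Hk1* turned to 0.27, and the calls of *Pgk1* and *Pkm* were lost. The share of all genes called in that fit is not given here. The DESeq2 Wald test called 6 members higher for the departure of the infarct zone, where edgeR called 0. It called 342 genes between genotypes across regions, 576 for the border zone, and 162 for the remote zone, where edgeR called 18, 93, and 0. No filter on low counts ended the infarct zone call of *Hk1* by edgeR (adjusted p = 0.0576), as did leaving out the WT left ventricle (0.0783), WT border zone (0.0726), or WT infarct zone library (0.214), settings chosen after the data were seen for these 3 libraries. No paired analysis was possible because the labels give no replicate numbers, and the blocks in the tests were regions or genotypes.

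Each group is 1 library, so no ratio has a replicate check, and tests across regions or genotypes describe libraries and not mice. At this depth *Slc2a1*, with 580 to 844 counts, had the widest counting intervals. The sources used here do not say whether a heart gave more than 1 library.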
